A study of Mus musculus with 48 samples.

Results

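The MHC class II presentation genes are the 9 genes H2-Aa, H2-Ab1, H2-Eb1, Cd74, H2-DMa, H2-DMb1, H2-Oa, H2-Ob and Ciita, taken by gene symbol. No cut on a measured value picked them, but they were chosen with earlier results of these data known. Each was looked up among 35556 transcript clusters (the array's gene-level probe sets), of which 23811 carried a symbol, covering 20702 genes, and where a gene had several clusters the brightest in the tissue was kept. A cluster carrying the symbol was found for 7 of the 9 genes, 1 cluster each. H2-DMb1 and H2-Ob, which encode a chain each of H2-DM and H2-O, were not analysed here.

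The arrays came from male, age-matched C57BL/6J mice kept in 12 h of light and 12 h of dark and fed a normal diet while receiving faecal transplants. The donors ate one of 3 diets, abbreviated HF for high fat, KD for ketogenic and NC for normal chow, so the transplant was shared by every group and the NC group was itself transplanted. Gut, labelled "Gut (DI)" without the letters being spelled out, and liver were each sampled at ZT12 and ZT0, that is 12 h and 0 h after lights on, with 4 arrays in each of the 12 groups (48 arrays, 24 per tissue). The titles carry 33 mouse codes, 15 of them in both tissues, and nothing else states that arrays of a group came from separate animals, so the p-values measure the spread between these arrays. Germ-free mice are also named in the protocol, and no label says whether any recipient was one.

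Class II molecules are heterodimers that carry peptides from endocytosed proteins to the cell surface, where CD4 T cells read them. The alpha and beta chains assemble on the invariant chain Cd74, a leftover of which fills the groove until the peptide exchanger H2-DM removes it, and H2-O restrains H2-DM. Ciita, the class II transactivator, does not bind DNA itself but is recruited by factors (RFX, CREB and NF-Y) seated on a set of short promoter motifs known as the W/S, X, X2 and Y boxes. B cells, dendritic cells and macrophages make these genes constitutively, many other cells including intestinal epithelium do so after interferon gamma, and H2-O is known chiefly from B cells and thymic epithelium.

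Promoter windows are shown for the 5 measured class II genes in which a motif of this kind was found. They are the 150 bases before the annotated start in RefSeq on GRCm38.p6, read 5′ to 3′ on the gene's own strand, and capitals mark the motifs searched for, TGATTGG (a Y box), AACNGATGNTGC (the X box region) and TGACGTCA (a cyclic AMP response element, the X2 type). The motifs were chosen after these sequences had been read, and AACNGATGNTGC is the 12-base stretch most alike upstream of TGATTGG in H2-Eb1, H2-DMb2 and H2-Eb2, so its presence there is no finding. H2-Aa lies at chr17:34287824-34287973 on the minus strand; H2-Eb1 at chr17:34305717-34305866, H2-Oa at chr17:34092229-34092378, H2-DMb2 at chr17:34145099-34145248 and H2-Eb2 at chr17:34325525-34325674 are on the plus strand.
H2-Aa: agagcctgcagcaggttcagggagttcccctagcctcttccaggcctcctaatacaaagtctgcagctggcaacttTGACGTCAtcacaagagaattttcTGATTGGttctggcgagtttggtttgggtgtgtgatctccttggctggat
H2-Eb1: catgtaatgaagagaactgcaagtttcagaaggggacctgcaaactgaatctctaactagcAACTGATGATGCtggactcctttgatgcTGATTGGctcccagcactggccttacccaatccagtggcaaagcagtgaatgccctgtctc
H2-Oa: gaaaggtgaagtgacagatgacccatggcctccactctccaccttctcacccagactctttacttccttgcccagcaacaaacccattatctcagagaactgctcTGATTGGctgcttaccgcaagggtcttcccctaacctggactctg
H2-DMb2: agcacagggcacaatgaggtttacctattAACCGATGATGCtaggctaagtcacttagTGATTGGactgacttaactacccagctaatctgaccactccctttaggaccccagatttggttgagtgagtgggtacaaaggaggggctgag
H2-Eb2: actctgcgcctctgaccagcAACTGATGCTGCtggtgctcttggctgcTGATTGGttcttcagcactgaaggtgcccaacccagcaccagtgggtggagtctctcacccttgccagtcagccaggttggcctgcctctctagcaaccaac

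TGATTGG stood in the gene's own direction in all 5 windows, 43 bases before the start in H2-Aa, 54 in H2-Eb1, 38 in H2-Oa, 85 in H2-DMb2 and 95 in H2-Eb2. AACNGATGNTGC preceded it in H2-Eb1, H2-DMb2 and H2-Eb2, with 16, 17 and 16 bases between the 2 motifs. In H2-Aa the palindrome TGACGTCA took that place, 66 bases before the start, while H2-Oa held TGATTGG alone. Neither the 2 windows of H2-DMa nor that of Cd79a held any of the 3 motifs, which says only that these letters are not there. Over the 250 bases before the start in 32851 windows of all genes, searched on both strands, TGATTGG was found in 7.23%, TGACGTCA in 1.55% and AACNGATGNTGC in 0.0274%, or 9 windows. Windows were found for 4 of the 7 measured members, and H2-Ab1, Cd74 and Ciita are named only.

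Values are intensities as deposited, and log2 levels are log2(intensity + 16) after quantile normalisation within a tissue, the scale of every difference below, which understates the change of dim genes. The tissue labels matched their defining markers. Epcam, an epithelial adhesion molecule, had a mean intensity of 4355.5 ± 256.2 in gut and 55.2 ± 8.7 in liver, and albumin (Alb), the hepatocytes' main secreted protein, 734.5 ± 904.0 in gut and 15340.7 ± 521.8 in liver (SD, n = 24 arrays each). Alb varied in gut, from 62.9 to 3578.7. Median intensities of the arrays lay between 124.9 and 135.8 in gut and between 88.2 and 104.4 in liver. In bulk tissue, fewer cells of a type and less RNA per cell cannot be told apart, and this touches every value below.

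Most class II transcripts were more abundant in gut than in liver, and most so H2-Aa. The authors may have normalised the tissues apart, so a level set across them carries that limit. H2-Aa, the alpha chain of the A molecule, ran from 955.2 to 3823.5 in gut (median 2046.1) and from 254.2 to 748.8 in liver (median 472.2), without overlap. H2-Ab1, its beta chain, ran from 684.7 to 3075.2 in gut (median 1469.8) and from 345.0 to 899.8 in liver (median 551.2), so its ranges overlapped. Cd74 had a mean of 2579.8 ± 981.3 in gut and 935.7 ± 234.6 in liver, and H2-Eb1, the beta chain of the E molecule, 972.4 ± 405.3 in gut and 288.5 ± 68.9 in liver (SD, n = 24 arrays each). H2-DMa, the alpha chain of the peptide exchanger, had a mean of 264.6 ± 101.1 in gut and 106.9 ± 16.6 in liver. The means of H2-Oa and Ciita, which act on the others, were nearer each other. They were 173.9 ± 120.6 in gut and 96.2 ± 14.7 in liver for H2-Oa, and 166.3 ± 67.0 in gut and 98.6 ± 11.8 in liver for Ciita. H2-Oa ran from 70.7 to 429.4 in gut, and its median intensity was 98.6 there and 94.8 in liver. For Ciita the medians were 141.2 in gut and 100.6 in liver. With the tissues normalised together, the median log2 level of H2-Oa was lower in gut, at 6.708 against 6.996 in liver. That of Ciita was 7.124 in gut and 7.018 in liver. A higher mean of H2-Oa in gut therefore does not describe most gut arrays.

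In a limma fit of all 48 arrays, 6 of the 7 measured members were higher in gut after Benjamini-Hochberg adjustment over 20702 genes, against 38.9% of all genes, with 45.1% lower and 84% either way. The log2 difference was 1.81 ± 0.13 for H2-Aa (SE, limma adjusted p = 4.48e-17), 1.26 ± 0.12 for H2-Eb1 (adjusted p = 1.12e-12), 1.19 ± 0.13 for Cd74 (1.86e-11) and 1.11 ± 0.13 for H2-Ab1 (1.32e-10). It was 0.75 ± 0.09 for H2-DMa (8.33e-10) and 0.24 ± 0.08 for Ciita (0.00452). H2-Oa missed the threshold at 0.17 ± 0.13 (adjusted p = 0.224), and passed it at 0.53 (0.000552) without the quantile step, a setting in which the median of all genes moved to 0.26, against -0.03 with it. Of the related genes, H2-DMb2, a beta chain of H2-DM close in sequence to H2-DMb1, was higher in gut by 1.32 ± 0.15 and H2-Eb2 by 0.73 ± 0.14, while H2-Ea, whose transcript C57BL/6 mice do not make, stood at -0.03 ± 0.03 (limma adjusted p = 0.316). Whether the H2-DMb2 probe set also reads H2-DMb1 transcripts was not tested, so its values may hold both. Cd79a, the signalling chain of the B-cell receptor, was higher in gut by 2.004 ± 0.29.

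**Figure D1:**
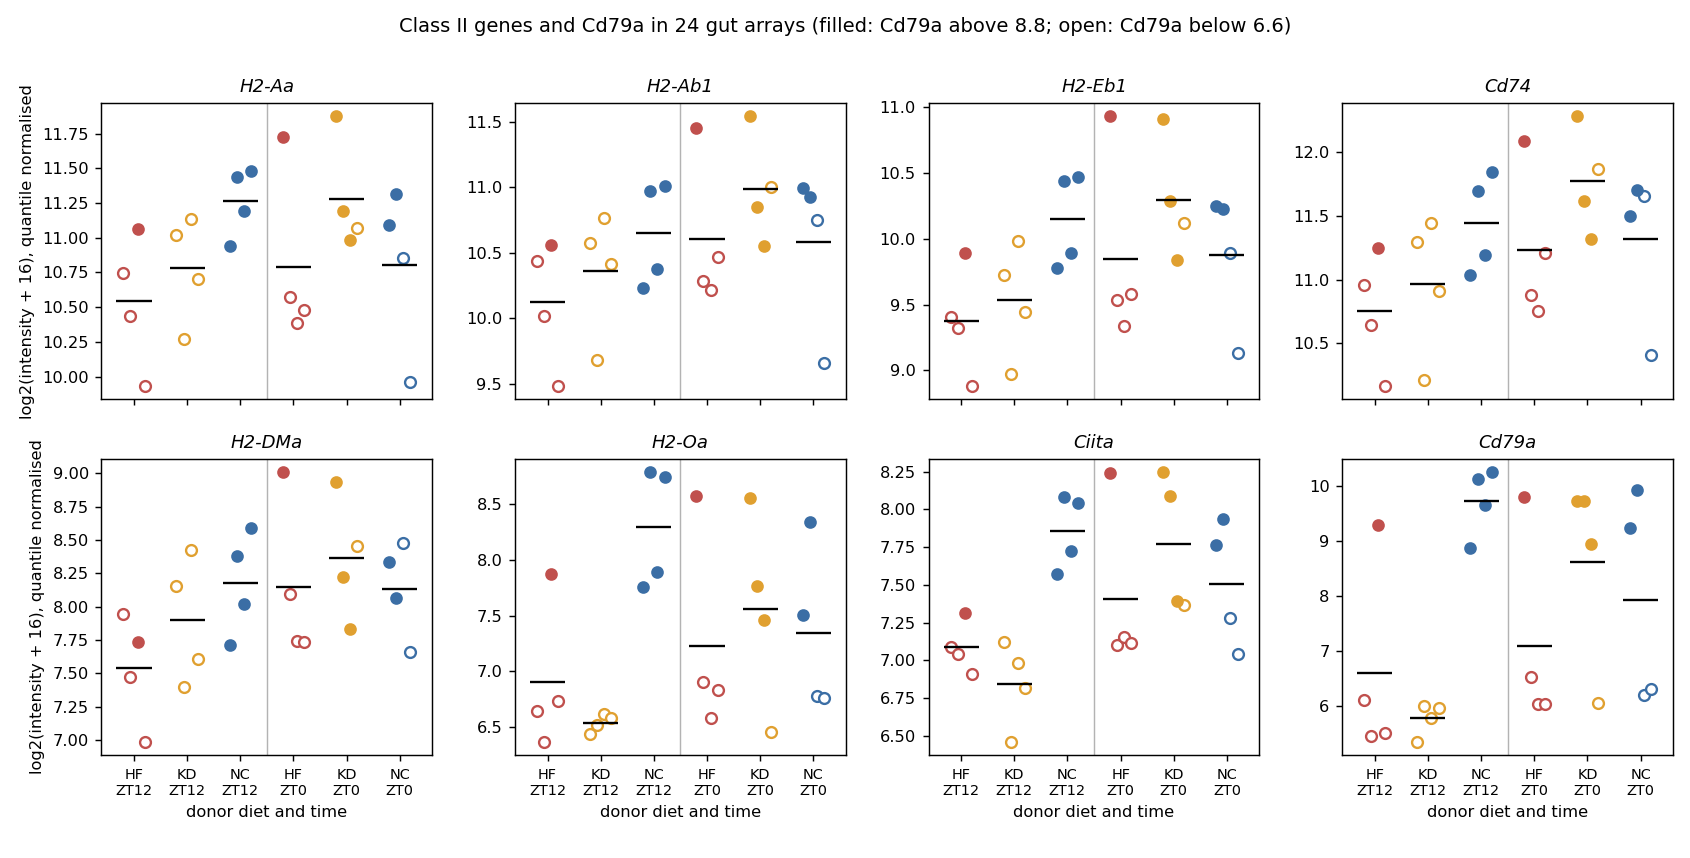
Log2(intensity + 16), quantile normalised, of 7 class II genes and Cd79a in 24 gut arrays, by donor diet and time; each point is 1 array, filled where Cd79a is high, and the bar is the group mean. H2-Oa separates filled from open points and Ciita nearly so, while H2-Ab1, Cd74 and H2-DMa mix them.

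The gut arrays fell into sets by Cd79a, and some of the class II genes divided along that line. The intensity of Cd79a at ZT12 was 55.7, 30, 601.3 and 33.1 in HF arrays and 26.7, 48, 43.0 and 46.8 in KD arrays, against 447.1, 1093.4, 778.9 and 1199.6 in NC arrays. At ZT0 it was 869.5, 73.3, 47.5 and 47.0 in HF arrays and 876.3, 859.2, 474.9 and 50.0 in KD arrays, against 571.8, 993.5, 57.0 and 58.7 in NC arrays. In 13 arrays Cd79a lay between 5.35 and 6.52 on the log2 scale and in 11 between 8.87 and 10.25, with no array in the gap of 2.35 between them. In liver it stayed between 4.99 and 5.88 on that tissue's own scale. The low set held 3 HF, 4 KD and none of the NC arrays at ZT12, and 3 HF, 1 KD and 2 NC arrays at ZT0. The high set held 1 HF and 4 NC arrays at ZT12, and 1 HF, 3 KD and 2 NC arrays at ZT0. Epcam lay between 11.93 and 12.18 in the low set and between 12.00 and 12.27 in the high set, so the 2 ranges overlapped.

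H2-Oa, the alpha chain of the H2-DM inhibitor, was brighter in every array with high Cd79a than in any with low Cd79a. Its intensity at ZT12 was 87.7, 70.7, 213.6 and 96.5 in the 4 HF arrays and 73.3, 75.1, 88.3 and 81.5 in the KD arrays, against 199.7, 429.4, 222.3 and 411.8 in the NC arrays. At ZT0 it was 371.3, 100.8, 77.0 and 93.8 in HF arrays and 376.3, 208.7, 162.1 and 71.9 in KD arrays, against 163.7, 319.3, 92.6 and 86.6 in NC arrays. The 11 arrays with high Cd79a were the 11 brightest for H2-Oa, the dimmest of them at 162.1, while the brightest of the 13 with low Cd79a was at 100.8. At ZT12 the KD and NC arrays did not overlap, and the single bright HF array was the single HF array with high Cd79a.

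Ciita, the transactivator, showed the same split more faintly. At ZT12 its intensity was 122.9, 118.6, 142.1 and 109.3 in HF arrays and 124.1, 71.5, 117.4 and 98.8 in KD arrays, against 174.7, 258.8, 197.9 and 247.5 in NC arrays. At ZT0 it was 294.5, 119.6, 122.1 and 117.7 in HF arrays and 299.4, 269.1, 154.1 and 148.5 in KD arrays, against 197.6, 236.2, 140.3 and 109.3 in NC arrays. The log2 levels of the sets overlapped slightly, 6.46 to 7.37 in the low set and 7.31 to 8.25 in the high set. H2-Oa left a gap, with 6.37 to 6.91 in the low set and 7.46 to 8.78 in the high set.

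H2-Ab1 did not divide the sets, though its median log2 level was 10.416 in the low set and 10.925 in the high set. At ZT12 its intensity was 1329.8, 995.8, 1479.7 and 684.7 in HF arrays and 1520.9, 773.8, 1757.2 and 1326.1 in KD arrays, against 1205.5, 1994.2, 1306.3 and 2078.0 in NC arrays. At ZT0 it was 2737.8, 1236.2, 1163.8 and 1381.6 in HF arrays and 3075.2, 1847.3, 1459.8 and 2034.2 in KD arrays, against 2002.1, 1919.1, 1669.7 and 831.5 in NC arrays. Its log2 levels ran from 9.48 to 11.001 in the low set and from 10.23 to 11.54 in the high set, and so overlapped between 10.23 and 11.001. Cd74 ran from 10.16 to 11.87 in the low set and from 11.03 to 12.28 in the high set. H2-Eb1 ran from 8.88 to 10.12 and from 9.78 to 10.93, and H2-DMa from 6.99 to 8.48 and from 7.71 to 9.01. H2-Aa overlapped less, with 9.934 to 11.136 and 10.938 to 11.873. The medians of these genes were also lower in the low set, at 10.913 against 11.616 for Cd74 and 9.443 against 10.249 for H2-Eb1. They were 7.742 against 8.226 for H2-DMa and 10.572 against 11.195 for H2-Aa. The 2 genes beside the members also left no overlap, H2-DMb2 with 6.94 to 8.42 and 8.59 to 9.90, and H2-Eb2 with 5.84 to 6.55 and 7.34 to 8.44, low set first. The sets were read off these arrays, so no test was made between them.

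**Figure D2:**
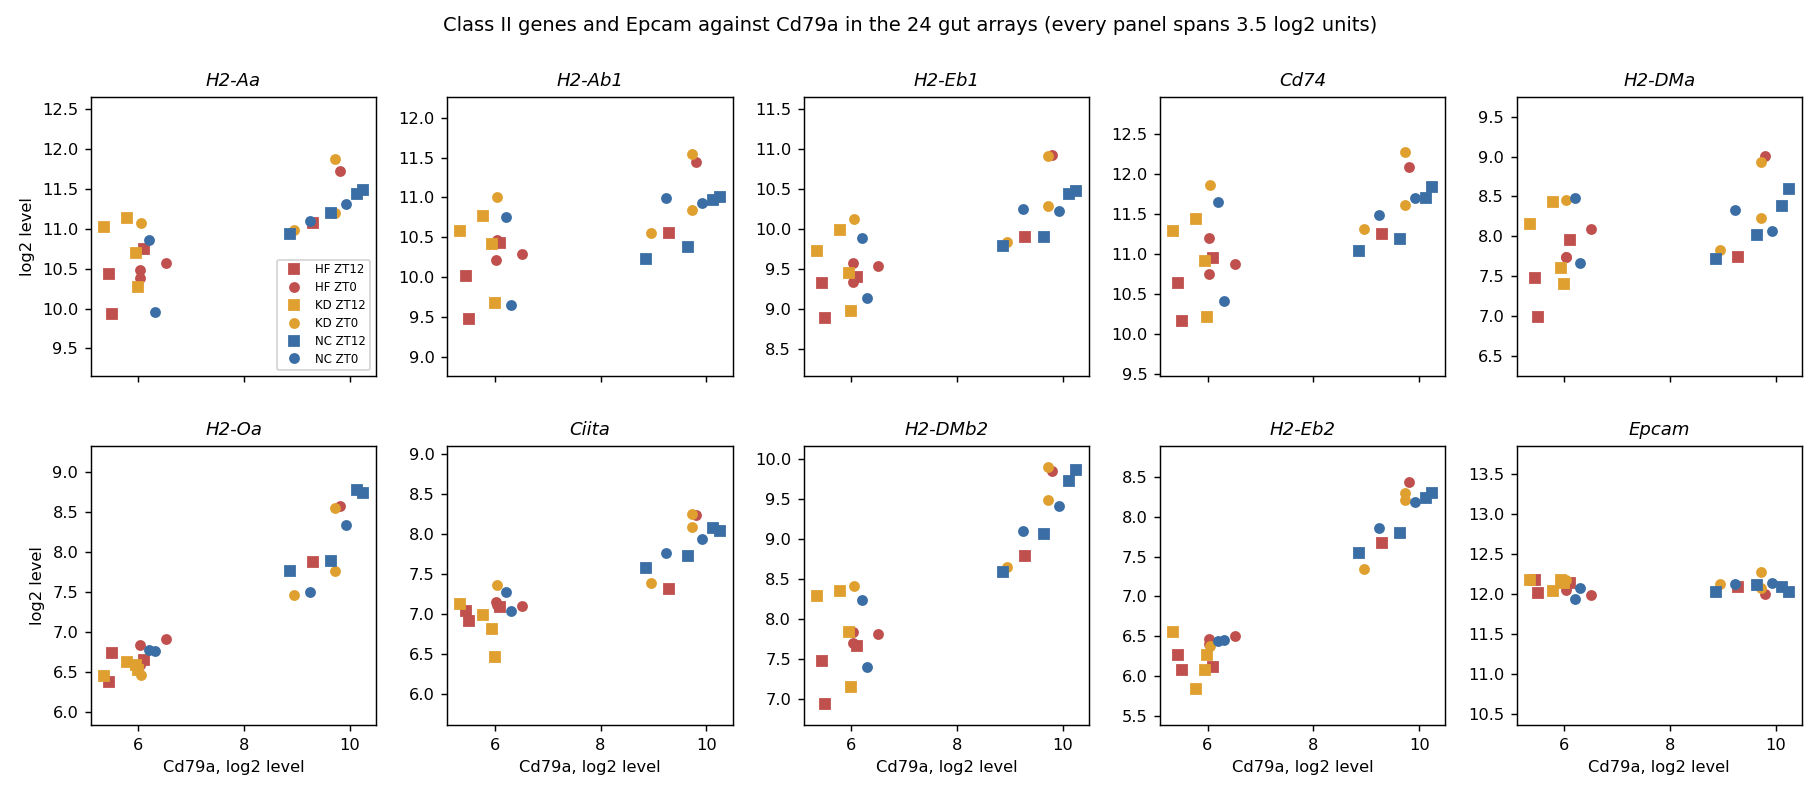
Log2 level of each class II gene (vertical) against that of Cd79a (horizontal), and that of Epcam, in 24 gut arrays, 1 point per array, coloured by donor diet, with squares for ZT12 and circles for ZT0. The arrays form a cloud of 13 at or below 6.52 and a cloud of 11 at or above 8.87 on the Cd79a axis; H2-Oa steps up between them, while H2-Ab1, Cd74 and H2-DMa spread widely within the cloud of low Cd79a.

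A slope on Cd79a, fitted by limma beside the 6 groups of donor and time, was called positive for 4 of the 7 members, against 2.03% of 20701 genes (2.1% with a slope of either sign). It was 0.42 ± 0.04 log2 units per log2 unit of Cd79a for H2-Oa (SE, n = 24, limma adjusted p = 3.43e-08), 0.23 ± 0.05 for H2-Aa (0.00512), 0.23 ± 0.05 for H2-Eb1 (0.00884) and 0.20 ± 0.03 for Ciita (0.000633). It missed the threshold for H2-Ab1 at 0.19 ± 0.06 (limma adjusted p = 0.109), Cd74 at 0.18 ± 0.06 (0.231) and H2-DMa at 0.12 ± 0.06 (0.504). The median slope of the 7 members was 0.20, and that of all genes -0.0045. Without replicate 1 of the HF group at ZT0 the calls of H2-Aa and H2-Eb1 were lost (limma adjusted p = 0.0771 and 0.134), and the slope of H2-DMa was 0.060 (0.846).

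The steep end of this range was shared with genes outside the members. H2-Eb2 had a slope of 0.47 ± 0.03 (limma adjusted p = 8.19e-10) and H2-DMb2 of 0.44 ± 0.06 (2.32e-05), whereas the silent H2-Ea stood at 0.0065. All 12 B-cell markers other than Cd79a had a called positive slope, with a median of 0.72 and a top value of 0.996 for Ms4a1, the gene of CD20. In T cells 5 of 8 markers did, among them Cd2 at 0.39 and Cd4 at 0.14. Of 6 costimulation genes 3 did, Icosl at 0.21, Pdcd1lg2 at 0.087 and Cd40 at 0.079, and of 9 antigen-processing genes Marchf1 alone, the ubiquitin ligase that removes class II from the surface, at 0.14. Single genes did among 5 plasma cell markers (Mzb1 at 0.14), 12 macrophage markers (Timd4 at 0.096) and 6 markers of sinusoidal endothelium (Pecam1 at 0.13). None of 7 class II transcription factors, 14 class I presentation genes, 18 interferon gamma response genes, 9 dendritic cell markers or 14 epithelial markers had a called slope.

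Within each set of arrays the presenting chains, Cd74 and H2-DMa had a high r with H2-Ab1. Over the 13 arrays with low Cd79a, Pearson's r with H2-Ab1 was 0.974 for Cd74 (rho 0.989), 0.965 for H2-Eb1 (rho 0.973), 0.937 for H2-Aa (rho 0.951) and 0.887 for H2-DMa (rho 0.868). Together with H2-DMb2 (r 0.958, rho 0.956) these were the 5 highest of 20701 genes, with Cd74 at the top. Ciita stood at 0.622 (rho 0.571) and rank 188, while H2-Oa stood at -0.123 (rho -0.071), Cd79a at 0.107 (rho 0.066) and Epcam at 0.071 (rho 0.143). H2-Oa was dim and varied little in this set (SD 0.161 log2 units, against 0.466 for H2-Ab1), so its low r carries little information.

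The permutation p of these r, from 100000 permutations, was 1e-05 for Cd74 and H2-Eb1, the smallest they can give, and 2e-05 for H2-Aa and 4e-05 for H2-DMa. Adjusted over all 20701 genes it was 0.069, 0.069, 0.1 and 0.14 in the same order, so none passed the threshold, as for 0% of all genes in this set. The smallest p passes only where 5 or more genes hold it, and 3 did here, so the number of permutations limits this count. Without the 2 arrays farthest from the median of H2-Ab1, r was 0.977 for Cd74, 0.961 for H2-Eb1, 0.881 for H2-Aa and 0.877 for H2-DMa. H2-Ab1 spanned 1.52 log2 units over these arrays.

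Against Cd79a, the same 13 arrays gave an r of 0.653 for H2-Oa (permutation p = 0.016, adjusted p = 0.24, rho 0.692), or 0.398 without the 2 arrays farthest from the median. The other 6 members lay between -0.077 for H2-Aa and 0.299 for H2-DMa, with permutation p of 0.32 or more. This set was cut on Cd79a, which was dim in all of it (26.7 to 73.3, against 14.4 to 39.8 in liver), so a low r with Cd79a there carries little information. In the 11 arrays with high Cd79a all 7 members had a positive r with Cd79a, 0.847 for H2-Oa (permutation p = 0.0012, adjusted p = 0.18, rho 0.873), 0.759 for Ciita (rho 0.636), 0.693 for H2-Aa (rho 0.8) and 0.571 for H2-Ab1 (rho 0.591). None passed the adjusted threshold there, which 0.0918% of all genes did. Arrays of different donors and times share a set, so neither was held constant in these r.

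In the 11 arrays with high Cd79a, Cd74 and H2-Eb1 again held the first ranks with H2-Ab1 (r 0.974 and 0.970, rho 0.927 and 0.936), with H2-DMa at 0.934, H2-Aa at 0.892, Ciita at 0.812 and H2-Oa at 0.631. Their adjusted permutation p ran from 0.052 to 0.57. Over the 24 liver arrays, r with H2-Ab1 was 0.977 for H2-Aa (rho 0.964), 0.958 for Cd74 (rho 0.946), 0.934 for H2-Eb1 (rho 0.917), 0.714 for Ciita, 0.703 for H2-DMa and 0.42 for H2-Oa, against -0.147 for Cd79a. H2-Aa, Cd74 and H2-Eb1 were the 3 highest of all genes there, with an adjusted permutation p of 0.052 each, and Ciita and H2-DMa ranked 5 and 6. Without the 2 farthest arrays, r was 0.948 for Cd74, 0.960 for H2-Eb1 and 0.801 for H2-Aa in the high gut set, and 0.945, 0.909 and 0.969 in liver. The same 3 genes led within the 12 liver arrays of ZT12 (r 0.889 to 0.955) and within the 12 of ZT0 (0.940 to 0.982). As in the low gut set, 0% of all genes passed the adjusted threshold in the high gut set or in liver, where 4 genes each held the smallest p and 5 were needed.

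**Figure D3:**
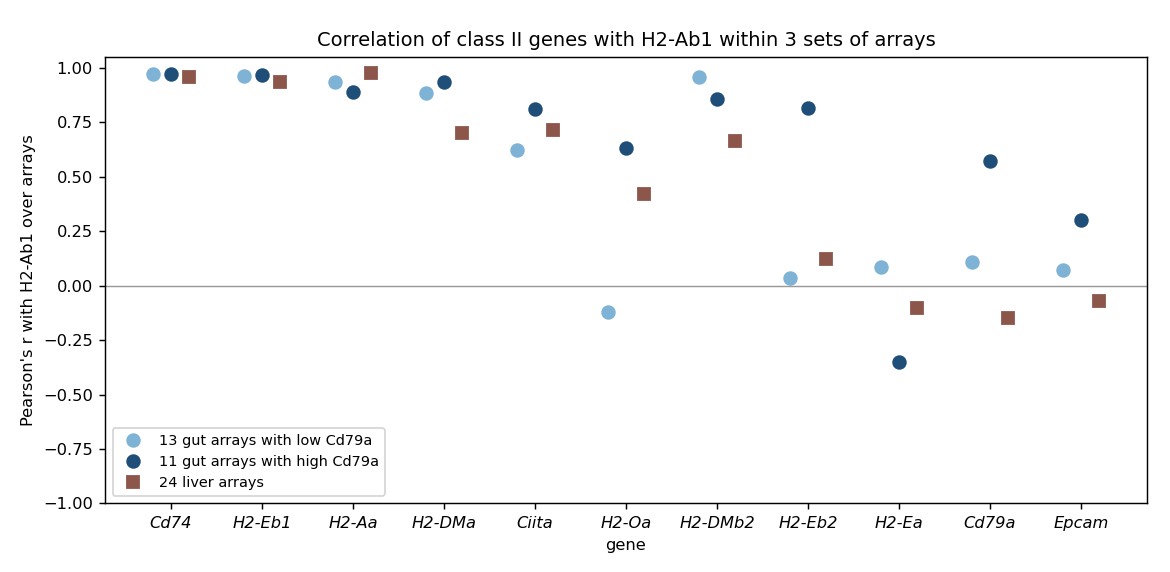
Pearson's r with H2-Ab1 (vertical) for 9 class II genes, Cd79a and Epcam (along the horizontal axis), over the 13 gut arrays with low Cd79a, the 11 with high Cd79a and the 24 liver arrays. Cd74, H2-Eb1 and H2-Aa lie at 0.892 or above in each set of arrays. H2-Oa lies below 0, at -0.123, only in the gut arrays with low Cd79a, where it was dim and varied little.

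Genes of class I presentation and of the interferon gamma response were also among those with a high r with H2-Ab1 in the gut arrays with low Cd79a. Of 14 class I presentation genes 13 had a positive r with H2-Ab1 there (median 0.536), and 6 had an unadjusted permutation p under 0.05, against 4.4% of all genes. Psmb8 and Psmb9, subunits of the immunoproteasome, stood at 0.872 and 0.776 (adjusted permutation p = 0.41 and 0.91). Of 18 interferon gamma response genes 15 were positive (median 0.473) and 8 had an unadjusted p under 0.05, with the guanylate-binding proteins Gbp6 at 0.783 and Gbp4 at 0.696 and the chemokine Cxcl9 at 0.685 (adjusted p = 0.91 each). Without the 2 arrays farthest from the median of H2-Ab1, Gbp4 stood at 0.395 and Cxcl9 at 0.444, so these rest on those arrays, while Psmb8 stood at 0.761. The cell type lists lay lower, with medians of 0.107 for 13 B-cell markers, 0.031 for 9 dendritic cell markers, 0.25 for 12 macrophage markers, 0.329 for 8 T-cell markers (all 8 positive) and 0.059 for 14 epithelial markers. All genes had a median of 0.002. The set was cut on Cd79a, on which the other B-cell markers had called slopes, so the low median of the B-cell list there carries little information.

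In the gut arrays with high Cd79a the corresponding medians were 0.622 for class I presentation and 0.677 for the interferon gamma response, with 7 of 14 and 12 of 18 genes at an unadjusted p under 0.05 against 8.72% of all genes. Tap1, a chain of the peptide transporter for class I, stood at 0.961 and Rfx5, the DNA-binding subunit of RFX, at 0.908 (adjusted permutation p = 0.052 and 0.31). B-cell markers had a median of 0.554 there (2 of 13 at an unadjusted p under 0.05), T-cell markers of 0.637 (5 of 8) and macrophage markers of 0.561 (5 of 12). Dendritic cell markers had a median of 0.045 (3 of 9) and epithelial markers of 0.14 (1 of 14), and all genes of -0.015. The medians of several cell type lists, though not of all, were thus high in this set. In liver the median was 0.314 for class I presentation, with 6 of 14 genes at an unadjusted p under 0.05 against 5.97% of all genes, and 0.231 for the interferon gamma response, with 3 of 18.

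The genes most like the mean level of H2-Aa, H2-Ab1, H2-Eb1 and Cd74 over all 24 arrays of a tissue were listed by Pearson's r as a description, leaving out the members. In gut they were H2-DMb2 at 0.929, Evi2a at 0.849, Gbp4 at 0.844, Mycbp2 at 0.838, Xylt1 and H2-Q6 at 0.832, Apbb1ip at 0.8291 and Dnase1l3 at 0.817. In liver they were Gbgt1 at 0.709, Cdx4 at 0.699, H2-DMb2 at 0.696, Naaa at 0.644, Adcy4 at 0.634, Rras and Lcp1 at 0.622 and Il2rb at 0.614. H2-DMb2 alone stood in both lists. The gut arrays share the split by Cd79a, and that enters their r.

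Donor diet was compared within each time by limma over the 24 arrays of a tissue. In gut at ZT12 all 7 members were lower after KD than after NC transplants, with a median log2 difference of -0.48, and lower after HF than after NC transplants, with a median of -0.72. None passed the adjusted threshold in either comparison, which 0.00483% of all genes (1 gene) did for KD against NC and 0% for HF against NC. At an unadjusted p under 0.05 there were 2 members for KD against NC, beside 9.77% of all genes, and 6 for HF against NC, beside 9.39%. Both comparisons share the NC arrays.

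H2-Oa averaged 79.6 ± 6.8 in KD guts and 315.8 ± 121.6 in NC guts at ZT12 (SD, n = 4 each), a log2 difference of -1.75 ± 0.44 (SE, limma adjusted p = 0.103). Ciita averaged 103 ± 23.5 in KD guts and 219.7 ± 40 in NC guts, a difference of -1.01 ± 0.24 (limma adjusted p = 0.103). The presenting chains and Cd74 differed less. H2-Eb1 differed by -0.62 ± 0.32, H2-Aa by -0.48 ± 0.30, Cd74 by -0.48 ± 0.33 and H2-Ab1 by -0.29 ± 0.32 (limma adjusted p of 0.566 to 0.836). For HF against NC the differences were -1.38 ± 0.44 for H2-Oa, -0.77 ± 0.24 for Ciita, -0.77 ± 0.32 for H2-Eb1, -0.72 ± 0.30 for H2-Aa and -0.53 ± 0.32 for H2-Ab1 (limma adjusted p of 0.318 to 0.646). Fitted on the KD and NC arrays of ZT12 alone, H2-Oa and Ciita passed the threshold (limma adjusted p = 0.00074 and 0.00328), beside 2.15% of all genes.

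In the authors' deposited table for KD against NC gut at ZT12, the ratio of group means was 0.252 for H2-Oa and 0.469 for Ciita, and their p-values, adjusted here over 23811 rows, came to 7.73e-05 and 5.46e-05, with 2.78% of all rows past 0.05. In the authors' deposited table for HF against NC at ZT12 the ratios were 0.371 for H2-Oa, 0.561 for Ciita, 0.573 for H2-Eb1 and 0.612 for H2-Aa, and all 4 passed after the same adjustment (0.00627, 0.0025, 0.0347 and 0.0459), as did 0.882% of rows. The authors' name for these comparisons includes "bayes analysis", and which test gave those p-values is not stated further.

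Beside these differences stood those of B-cell markers. All 13 were lower in gut at ZT12 after KD than after NC transplants, with a median log2 difference of -2.88, and after HF than after NC transplants, with a median of -2.30. Each of the 13 had an unadjusted p under 0.05 in both comparisons, and none passed the adjusted threshold. T-cell markers were also lower, all 8 after KD than after NC transplants (median -0.35, lowest -1.66, 3 at an unadjusted p under 0.05) and 7 of 8 after HF than after NC transplants (median -0.21, lowest -1.26, 2 at an unadjusted p under 0.05), none called by limma. Cd79a averaged 41.1 ± 9.8 in KD guts and 879.8 ± 339.3 in NC guts at ZT12 (SD, n = 4 each), a log2 difference of -3.95 ± 0.96 (SE, limma adjusted p = 0.103). The 14 epithelial markers had a median difference of 0.04 for KD against NC. With Cd79a as a covariate the KD against NC difference at ZT12 was -0.09 ± 0.22 for H2-Oa, -0.23 ± 0.20 for Ciita, 0.41 ± 0.28 for H2-Aa and 0.47 ± 0.35 for H2-Ab1 (SE, limma adjusted p of 0.92 or more), with 0% of all genes called. At ZT12 every KD array had low and every NC array high Cd79a, so KD donors and low Cd79a cannot be told apart at that time, and the adjusted values rest on a slope pooled within all 6 groups.

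**Figure D4:**
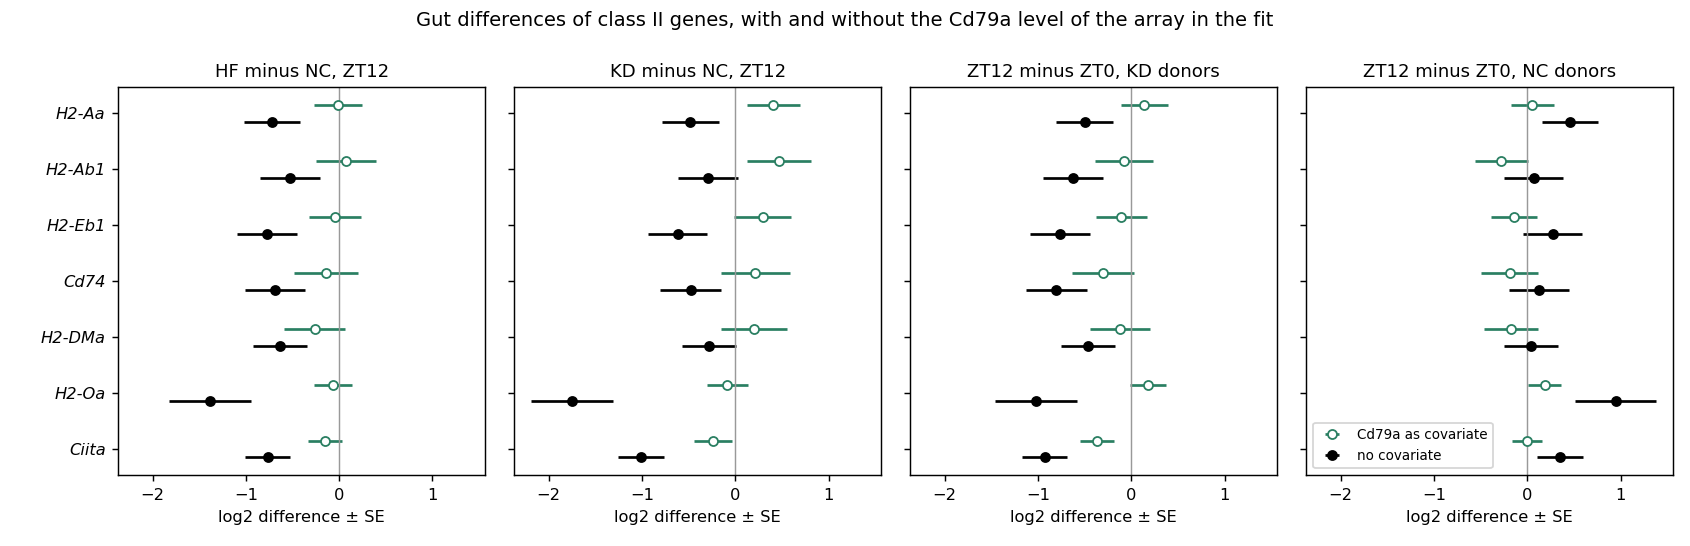
Log2 difference ± SE (horizontal) of each class II gene in gut for HF minus NC at ZT12, KD minus NC at ZT12, and ZT12 minus ZT0 with KD and with NC donors, from limma on 24 arrays, without (filled) and with (open) the Cd79a level of the array in the fit. H2-Oa moves from -1.75 to -0.09 for KD minus NC once Cd79a is in the fit.

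At ZT0 no gut member was called between donor diets either. After KD transplants all 7 were higher than after NC transplants, with log2 differences of 0.21 to 0.48, and after HF transplants they lay between -0.12 and 0.02 of NC. None had an unadjusted p under 0.05, beside 3.82% of all genes for KD and 4.4% for HF, and 0% of genes passed the adjusted threshold. HF and KD guts were also compared, and the members' differences lay between -0.36 and 0.37 at ZT12 and between -0.54 and -0.22 at ZT0, none of them called, as for 0% of all genes, and none at an unadjusted p under 0.05, beside 3.74% and 5.23%. The change of the KD against NC difference between the times was -1.96 ± 0.62 for H2-Oa and -1.28 ± 0.34 for Ciita (SE, limma adjusted p = 0.45 and 0.438), again beside 0% of all genes, and 4 members had an unadjusted p under 0.05, beside 6.73%. For Cd79a that change was -4.64 ± 1.36.

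Between ZT12 and ZT0 in gut, Ciita with KD donors was the only member past the threshold in any donor group, beside 4.2% of all genes, or 1.71% lower. Its mean intensity was 103 ± 23.5 at ZT12 and 217.8 ± 77.8 at ZT0 (SD, n = 4 each), a log2 difference of -0.93 ± 0.24 (SE, limma adjusted p = 0.0315), and the arrays of the times did not overlap. The call was lost without replicate 1 or 4 of ZT0 or replicate 10, 12 or 13 of ZT12, and with Cd79a as a covariate (-0.37, limma adjusted p = 0.354, beside 1.55% of all genes). Cd79a differed by -2.84 ± 0.96 in the same comparison, with 4 of 4 arrays low at ZT12 and 1 of 4 at ZT0. With KD donors all 7 members were lower at ZT12 (-0.46 to -1.02, 4 with an unadjusted p under 0.05, beside 20.7% of all genes), as they were with HF donors (-0.25 to -0.61, none called, beside 3.22% of all genes, and 1 at an unadjusted p under 0.05, beside 19.2%). With NC donors all 7 were higher at ZT12 (0.04 to 0.95, none called, beside 2.35%, and 1 at an unadjusted p under 0.05, beside 14.8%). Averaged over donors the members lay between -0.38 and -0.10, none called by limma, beside 21% of all genes, and Ciita alone at an unadjusted p under 0.05, beside 34.4%.

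Other genes of the pathway changed with time in gut over all donors, where 11% of all genes were higher and 10% lower at ZT12. Of 14 class I presentation genes 6 fell at ZT12, among them Canx by 0.17, Calr by 0.15 and H2-D1, a class I heavy chain, by 0.16 on the log2 scale, and Nlrc5, the class I transactivator and a relative of Ciita, rose by 0.27 ± 0.05 (SE, limma adjusted p = 0.00113). Of 18 interferon gamma response genes 2 fell, Irf1, a transcription factor that acts on the Ciita promoter, by 0.41 ± 0.06 (limma adjusted p = 0.000104) and Gbp6 by 0.52 ± 0.16 (0.0267). Of 7 class II transcription factors Rfxank and Nfya fell, by 0.13 and 0.14. Of 9 antigen-processing genes Marchf8, a ubiquitin ligase for class II, rose by 0.18 and Ifi30, the lysosomal thiol reductase, fell by 0.15. The counts of the interferon gamma and antigen-processing lists lie near the shares of all genes. In the same comparison 3 of 6 sinusoidal endothelium markers, 3 of 8 hepatocyte markers (Alb with a log2 difference of -1.34), 1 of 8 T-cell, 1 of 12 macrophage and 1 of 14 epithelial markers fell. Of the same lists, 1 hepatocyte, 2 macrophage and 2 epithelial markers rose, as did 1 of 5 plasma cell markers, and the part of these lists in the values above was not tested.

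In liver no member passed the limma threshold between donor diets at either time, as for 0% of all genes in each of the 6 comparisons. H2-DMa alone had an unadjusted p under 0.05, at ZT0 for HF against NC (-0.25 ± 0.12) and for HF against KD (-0.25 ± 0.12), where 5.04% and 3.39% of all genes had one. For KD against NC at ZT0 that share was 5.19%, and at ZT12 it was 4.37% between HF and NC, 4.02% between KD and NC and 2.24% between HF and KD. Between the times H2-Oa was the one member past the threshold. Its intensity was 110.9, 116.6, 100.1 and 124.8 at ZT12 and 89.9, 74.9, 86.7 and 92.5 at ZT0 with HF donors. With KD donors it was 108.7, 101.3, 109.7 and 105.6 at ZT12 and 81.9, 73.5, 86.4 and 106.2 at ZT0. With NC donors it was 94.4, 95.3, 111.5 and 110.7 at ZT12 and 92.3, 72.3, 84.8 and 77.0 at ZT0. The times did not overlap with HF or NC donors, and 1 KD array of ZT0 lay among those of ZT12.

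H2-Oa rose at ZT12 by 0.27 ± 0.07 with HF donors (SE, limma adjusted p = 0.0211) and by 0.25 ± 0.07 with NC donors (0.029), and differed by 0.18 ± 0.07 with KD donors (0.14). The shares of all genes called were 7.87%, 9.26% and 8.59% (higher at ZT12 in 3.29% with HF and 4.39% with NC donors), so a count of 1 member in 7 lies near the background. At an unadjusted p under 0.05 there were 2 members with HF, 1 with NC and 1 with KD donors, beside 22.2%, 22.8% and 21.9% of all genes. Averaged over donors it rose by 0.23 ± 0.04 (limma adjusted p = 0.00016), beside 28.6% of all genes (13.9% higher, 14.7% lower, and 39.4% at an unadjusted p under 0.05). Fitted on the compared arrays alone the donor-wise calls were lost (limma adjusted p = 0.0536 and 0.0553), and each was also lost without 1 of 4 arrays (replicates 3 and 4 of ZT0 or 9 and 13 of ZT12 with HF donors, replicates 4 and 6 of ZT0 or 11 and 13 of ZT12 with NC donors). With KD donors H2-Oa passed without replicate 7 of ZT0. The other 6 members were each higher at ZT12 over all donors, by 0.05 to 0.27, and none passed the threshold, with Cd74 at 0.22 ± 0.14 (0.236) and Ciita at 0.05 ± 0.05 (0.475). Cd79a lay between 14.4 and 39.8 in every liver array, around the offset of 16, too dim for a fit with it as a covariate to bear on these values.

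**Figure D5:**
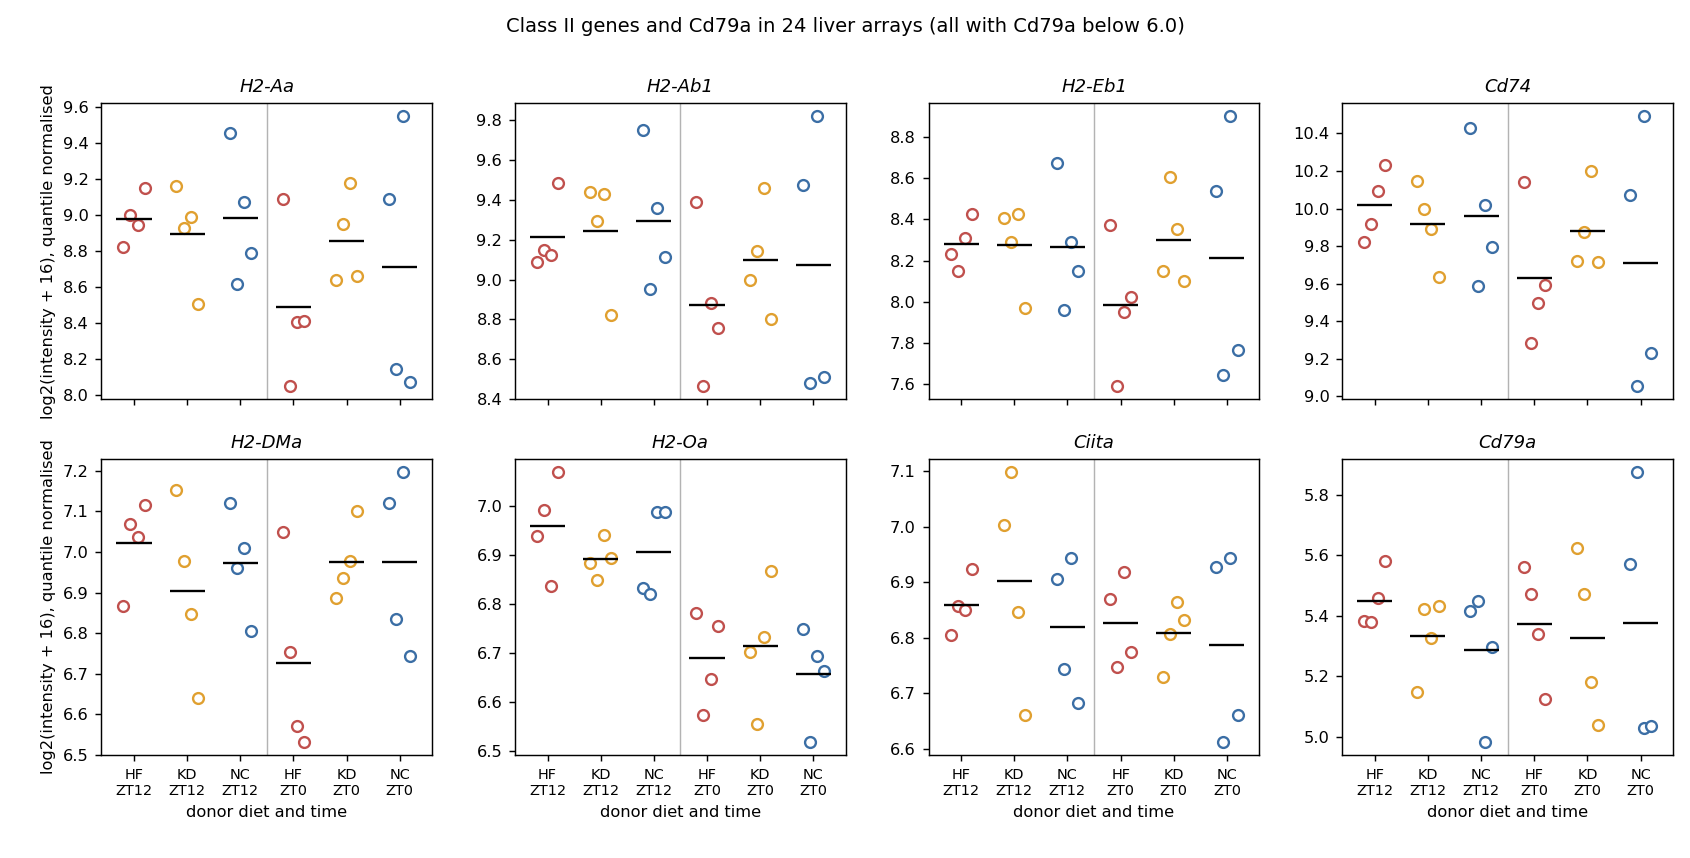
Log2(intensity + 16), quantile normalised, of 7 class II genes and Cd79a in 24 liver arrays by donor diet and time; each point is 1 array and the bar is the group mean. H2-Oa lies higher at ZT12 than at ZT0 with HF and NC donors, without overlap, and with KD donors 1 array of ZT0 lies among those of ZT12; for each of the other 6 members the times overlap with every donor diet.

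Among the other genes of the pathway in liver, changes went both ways between the times over all donors, where 13.9% of all genes were higher and 14.7% lower at ZT12. Of 14 class I presentation genes 6 rose at ZT12, among them the immunoproteasome subunits Psmb9 by 0.50 ± 0.08 and Psmb10 by 0.37 ± 0.05 (SE, limma adjusted p = 8.05e-05 and 8.91e-06). The 3 that fell were the chaperones of the endoplasmic reticulum, Calr by 0.45, Pdia3 by 0.40 and Canx by 0.25. Of 7 class II transcription factors 4 fell, Rfxank, a subunit of RFX, by 0.79 ± 0.08 (limma adjusted p = 1.06e-07), Nfyb by 0.35, Rfx5 by 0.24 and Creb1 by 0.13. Of 9 antigen-processing genes the cathepsins Ctsl and Ctsb fell, by 0.31 and 0.15, and of 18 interferon gamma response genes Gbp7 and Irgm2 rose by 0.64 and 0.45 and the receptor chain Ifngr1 fell by 0.34, and the counts of these 2 lists lie near or below those shares. Of 12 macrophage markers 4 fell, including Vsig4 and Clec4f of Kupffer cells by 0.44 and 0.39, as did 5 of 6 markers of sinusoidal endothelium and 5 of 14 epithelial markers, and their part in the values above was not tested.

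Set side by side, the ZT12 minus ZT0 difference averaged over donors had a gut minus liver gap of -0.63 ± 0.25 for Cd74, -0.61 ± 0.25 for H2-Ab1 and -0.35 ± 0.15 for Ciita (SE, limma adjusted p = 0.0814, 0.0963 and 0.117). No member passed the limma threshold for this difference, beside 17.6% of all genes, and 4 had an unadjusted p under 0.05, beside 28.8%.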

How the data were processed

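Total RNA of gut and liver was hybridised to 1-colour gene-level arrays, and the deposited intensities, summarised by the authors with PLIER per the submitters' processing notes, were used as given. The tables of the authors' comparisons hold a p-value and a ratio of group means, and both were taken from there. The 64 further columns of per-sample values in those tables were not used. The genome build and array annotation release are not given in the sources used here. Clusters were named by accession (22722), current symbol (691), older name (108) or the symbol in the deposited table (290).

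Intensities were quantile normalised within a tissue after an offset of 16 and tested with limma 3.58.1 in R 4.3.3, with 6 groups of 4 arrays per tissue, 16 contrasts and Benjamini-Hochberg adjustment over 20702 genes at 0.05. The 48 arrays were normalised together for gut against liver. Correlations used 100000 permutations. The number of arrays limits the precision. The methods were tested on simulated data. The members, gene lists and tests were chosen with earlier results of these data known. Genes named are all members, Cd79a, Epcam, at most 4 genes per pathway list with the smallest p under 0.01 in the comparison described, and the 8 most alike genes; others named from a list were chosen after their values were seen. The division of gut arrays by Cd79a, a Cd79a covariate in liver and the liver correlations were also added after seeing the data.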

Additional observations from a re-analysis of the deposited data

Results flagged for a closer look

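Among 120 groups of 4 arrays (a gene in a tissue, donor diet and time), 10 held an array whose gap to its nearest neighbour was too large a share of the group's range by Dixon's 95% criterion. Chance alone marks about 1 in 20 groups.

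Replicate 1 of the HF gut group at ZT0 accounted for 7 of the 10, and was the highest of its group each time. Its log2 level was 9.80 for Cd79a, where the other 3 arrays lay between 6.03 and 6.52, and 8.57 for H2-Oa, where they lay between 6.58 and 6.90. It was 8.24 for Ciita (7.10 to 7.16 in the others), 11.73 for H2-Aa (10.39 to 10.57), 10.93 for H2-Eb1 (9.34 to 9.58), 9.86 for H2-DMb2 (7.69 to 7.84) and 8.44 for H2-Eb2 (6.40 to 6.51). This array belongs to the 11 with high Cd79a.

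Replicate 10 of the HF gut group at ZT12, the single array of its group with high Cd79a, had an H2-Eb2 level of 7.67 against 6.08 to 6.27 in the others. Replicate 6 of the NC gut group at ZT0 was lowest in Cd74, at 10.41 against 11.50 to 11.70. In liver, replicate 13 of the HF group at ZT12 was highest in H2-Ab1, at 9.48 against 9.09 to 9.15.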

How the results depend on the processing

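Of 53 results (counts of members past the threshold, slopes on Cd79a and tissue differences), 40 kept their verdict under every alternative run. The same verdict came from 385 of 404 alternatives and 532 of 552 fits without 1 array. A count kept its verdict by staying the same or nearly so, a slope or difference by keeping its direction and side of the threshold. For single members within a tissue, 2012 alternatives gave the same verdict and 111 changed direction without a call. Another 2 changed direction with a call, 13 gained a call and 4 lost it. Without 1 array, 2442 gave the same verdict, 230 changed direction, 3 gained a call and 13 lost it. For KD against NC in gut at ZT12 the members past the threshold numbered 2 on the compared groups alone (beside 2.15% of all genes), 2 with array weights (1.44%) and 2 by the authors' p-values (2.78%), against 0; for HF against NC there were 4 by the authors' p-values (0.882%), against 0. The call for KD donors between the times in gut was 0 with Cd79a as a covariate. The liver time calls with HF and with NC donors were 0 on the compared groups alone (beside 6.7% and 9.6% of all genes). The slope on Cd79a was 0.2094 for H2-Aa, 0.212 for H2-Eb1 and 0.0926 for Ciita within ZT12 and 0.2334 for H2-Eb1 within ZT0, none past the threshold, and 0.1654 for H2-Ab1 and 0.1844 for Cd74 with no groups in the fit, both past it. H2-Oa, gut minus liver, passed at 0.526 without the quantile step. The cause of these changes was not tested.

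Leaving out 1 array gave counts of 0 to 1 for KD donors between the times in gut, and in liver 0 to 2 with HF, 0 to 1 with KD, 0 to 1 with NC and 1 to 2 with all donors. The slopes ran from 0.1889 to 0.2637 for H2-Aa, 0.1557 to 0.2449 for H2-Ab1, 0.1795 to 0.275 for H2-Eb1 and 0.0603 to 0.162 for H2-DMa, with H2-Ab1 past the threshold without replicate 6 of KD at ZT0 (adjusted p = 0.0395) or replicate 10 of KD at ZT12 (0.0485).

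Arrays sharing a replicate number did not deviate together on average (mean r 0.0016 over 16 pairs in gut and -0.0836 over 14 in liver). Single pairs ran from -0.2735 to 0.4631 in gut and from -0.3289 to 0.1527 in liver. With the replicate number as a block, the members past the threshold numbered 1 for KD against NC in gut at ZT12 (beside 0.169% of all genes) and 2 for the change of that difference (0.652%). In liver the time calls were 0 with HF donors, 0 with NC donors (H2-Oa -0.006) and 0 over all donors (H2-Oa -0.003), beside 1.58%, 2.11% and 3.52% of all genes. Numbers in liver ran from 1 to 7 at ZT0 and from 7 to 13 at ZT12, so the number 7 alone ties the times together. In gut they ran from 1 to 6 and from 8 to 13, so no paired fit of the times was possible and none was run. The mouse as a random block changed no call in gut minus liver (correlation 0.0285).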
